A study of Caenorhabditis elegans with 39 samples.

Results

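The genes described here are the pseudogenes that were transcribed in the hermaphrodite germline of *C. elegans*. Of the 22844 features in the gonad mRNA tables, 1441 were annotated as pseudogenes, and 231 of these reached at least 10 normalized reads in at least 3 of the 9 libraries made from mutant and wild type distal gonads. A normalized read is an RSEM read estimate divided by a factor that the authors set for each library. Of the other pseudogenes, 767 were at 0 in all 9 libraries and 443 had some reads but stayed under the threshold. Since the genes were chosen by their level in these gonads, that level is a description and not a finding. They are called the expressed pseudogenes below.

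The groups were distal gonad arms of *prg-1(n4357)* mutants, *mut-16(pk710)* mutants and wild type (N2) animals, and whole wild type animals. All were gravid adult hermaphrodites of 68 to 70 h grown at 20 °C, and both mutant alleles had been outcrossed to N2 before use. Each group had 3 mRNA libraries and 3 small RNA libraries. The dissected distal arm holds mitotic and meiotic germ cells with some somatic gonad cells around them, so these libraries are not pure germ cells. The study calls its replicates biological. The labels do not say that they came from separate cultures, and p-values measure the spread between these libraries.

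Pseudogenes are copies or remnants of genes that no longer encode an intact protein, and many still carry a promoter and produce RNA. In *C. elegans*, RNA with an early stop codon can be degraded by nonsense-mediated decay, which needs the SMG proteins. A second silencing route acts in the germline, where RNA-dependent RNA polymerases copy target RNA into small RNAs that mostly start with G, the 22G-RNAs. The Argonaute PRG-1 binds piRNAs, and recognition of a target by PRG-1 leads to 22G-RNA synthesis in mutator foci, which are organized by MUT-16. The resulting WAGO-class 22G-RNAs are bound by the WAGO Argonautes, which silence pseudogenes, transposons and some protein-coding genes, while CSR-1-class 22G-RNAs target most germline-expressed genes without silencing them.

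Reads worked back from the deposited values came to between 12767853 and 17816304 per mRNA library, to between 2317176 and 7051210 per gonad small RNA library and to between 505952 and 1642602 per whole animal small RNA library. In the table that holds both tissues, 14 of 16 germline markers were called higher in wild type gonads than in whole animals and 12 of 12 intestinal markers lower. *prg-1* mRNA was at 4671, 5308 and 6264 normalized reads in *prg-1* gonads, against 9973, 10505 and 11171 in wild type gonads, and *mut-16* mRNA was at 927, 978 and 945 in *mut-16* gonads, against 2086, 2072 and 2050 in wild type gonads, so each mutant carried less RNA of its own gene (log2 change -0.97, adjusted p = 5.8e-05, for *prg-1* and -1.12, adjusted p = 5.9e-08, for *mut-16*). Gonad libraries differed in markers of other cells. The sum of 15 sperm marker genes was 2668, 5203 and 14357 normalized reads in *prg-1*, 2218, 3775 and 1539 in *mut-16* and 123, 510.4 and 110 in wild type gonads. All 15 were called higher in *prg-1* gonads and 13 of 15 in *mut-16* gonads, and *prg-1* replicate 3 stood apart from the other libraries. Of 7 muscle markers tested, 6 were higher in both mutants, with sums over the 9 listed of 1780.5 to 3558 in *prg-1*, 1596 to 1937 in *mut-16* and 684 to 863 in wild type gonads. Of 4 somatic gonad markers tested, *inx-9*, a gap junction protein gene of the gonadal sheath, was called higher in both mutants (log2 change 0.67, adjusted p = 0.0016, in *prg-1* and 0.72, adjusted p = 0.0018, in *mut-16*), and the 5 listed summed to 1519.7 to 1829.8 in *prg-1*, 1376 to 2070.1 in *mut-16* and 1199 to 1288 in wild type gonads. Intestinal markers summed to 280.0 to 467 in *prg-1*, 95.1 to 199 in *mut-16* and 83.8 to 377 in wild type gonads, against 155822 to 168336 in whole animals. The part of other cells in the results below was not tested. In bulk libraries, fewer cells of a type and less RNA per cell cannot be told apart.

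The RefSeq annotation of assembly WBcel235 held 223 of the 231 expressed pseudogenes, and it now classes 204 as pseudogenes, 17 as protein-coding, 1 as a lncRNA and 1 as another noncoding RNA. Only 56 carried a gene name other than their sequence name. The largest named family was the F-box family with 17 genes, whose intact members encode substrate adaptors of ubiquitin ligases. It was followed by 6 *bath* genes (BTB and MATH domains), 5 chemoreceptor genes and 4 C-type lectin (*clec*) genes. Smaller groups were 2 genes each named for major sperm proteins, which form the motile cytoskeleton of nematode sperm, for histones, for ribosomal proteins and for cytochrome P450 enzymes. In the WBcel235 gene order, 68 of the 231 lay in 28 runs with no more than 2 coding genes or pseudogenes between neighbouring members.

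Reads were unevenly divided among the genes. The mean per gene over the 9 gonad libraries ran from 4.67 to 62364 normalized reads, with a median of 52.3 and quartiles of 18.6 and 154. Values were not divided by transcript length, so they say how many reads a gene took and not how many molecules were present. F54D7.7 (*rpl-41.2*) and its neighbour F54D7.6 (*rpl-41.1*), both named for a small protein of the large ribosomal subunit and both now classed as protein-coding, took between 62.3 and 68.4% of all expressed pseudogene reads in every library. All the others together made up between 0.193 and 0.237% of each library.

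F54D7.7 had 69429, 61922 and 62076 in *prg-1*, 56364, 69649 and 65336 in *mut-16* and 63871, 54802 and 57830.5 in wild type libraries, and the test did not call it in either mutant. Its neighbour F54D7.6 had 3248, 3025 and 3113 in *prg-1*, 2566, 3083 and 2993 in *mut-16* and 2349, 2041 and 2035 in wild type libraries, with log2 changes of 0.55 ± 0.08, adjusted p = 0.00058, in *prg-1* and 0.43 ± 0.08, adjusted p = 0.0038, in *mut-16*. Its *mut-16* fold fell under 1.3 without *mut-16* replicate 2, at 0.38 on the log2 scale. C06A1.4 was called lower only in *mut-16* gonads, where it had 2655, 2578 and 2425 reads, against 4419.6, 4142 and 4236 in wild type (log2 change -0.74 ± 0.05, adjusted p = 2.5e-06). In *prg-1* gonads it had 3479.9, 3598 and 3704 reads (-0.25 ± 0.05, adjusted p = 0.0025, not called). Of the 10 genes with the highest means, the other called one was Y43F11A.6, with 758, 824 and 1034 in *prg-1* gonads, against 510.4, 600.3 and 629 in wild type gonads (log2 change 0.58 ± 0.13, adjusted p = 0.0061). B0250.3, F43G6.3, Y106G6D.5, Y62E10A.15 (*cyp-31A5*), Y53C10A.1 and K03D7.1 were called in neither mutant against wild type.

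At the threshold itself, the lowest genes inside were F59A6.8 (*msp-71*), whose 3rd highest value was 10.1, and Y105C5A.31, also with 10.1, and the highest ones outside were C47G2.6 with 9.81 and Y49E10.26 with 9.72. F59A6.8 had 3.68, 10.1 and 84 reads in *prg-1*, 4.11, 14.5 and 0 in *mut-16* and 0, 1.78 and 0 in wild type libraries. In all, 43 genes were under 10 in every wild type library and so entered through a mutant. Those 43 could enter only by being higher in a mutant library, and their calls are counted apart below. Replicates varied by a median coefficient of variation of 16.7% in *prg-1*, 13.2% in *mut-16* and 11.4% in wild type gonads, over the 210 genes in *prg-1*, 205 in *mut-16* and 181 in wild type with a mean of at least 10. The estimates of 220 of the 231 genes came to whole reads within 0.02 of a read and 1, C38D4.10, held fractions of reads. The other 10 had over 500 reads, where the precision of the values hides fractions.

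In *prg-1* gonads, pseudogenes changed in both directions. The 8 with the largest gains, all but T13F2.9 with a wild type mean under 10 normalized reads, were highest in *prg-1* replicate 3, the library with the most sperm marker RNA. A second group of 9, among them 3 neighbouring F-box pseudogenes, fell in *prg-1* gonads and was not called lower in *mut-16* gonads. They are not all that did so, since T10C6.9, F46C3.4 and C40H5.8, among others, also fell in *prg-1* without a *mut-16* call. Another small group fell in both mutants. Of the 231 genes, 72 were called higher in *prg-1* than in wild type gonads and 31 lower.

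A call required an adjusted p below 0.05, from limma on log2 of the value plus 1 with Benjamini-Hochberg adjustment over all 9943 features tested, and a fold of at least 1.3. By the same rule, 20.7% of all features tested were called higher and 9.53% lower, or 30.3% together, against 44.6% of the expressed pseudogenes called in either direction. Among the 43 that were under 10 in every wild type library, 33 were higher, and among the other 188 there were 39 higher and 31 lower. The features as a whole were not split in this way, so 44.6% against 30.3% is a description only. The median log2 change over the 231 was 0.15, against 0.01 over all features. Without *prg-1* replicate 3, 64 were higher and 34 lower, of which 61 and 30 had the same call as with all libraries.

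**Figure D1:**
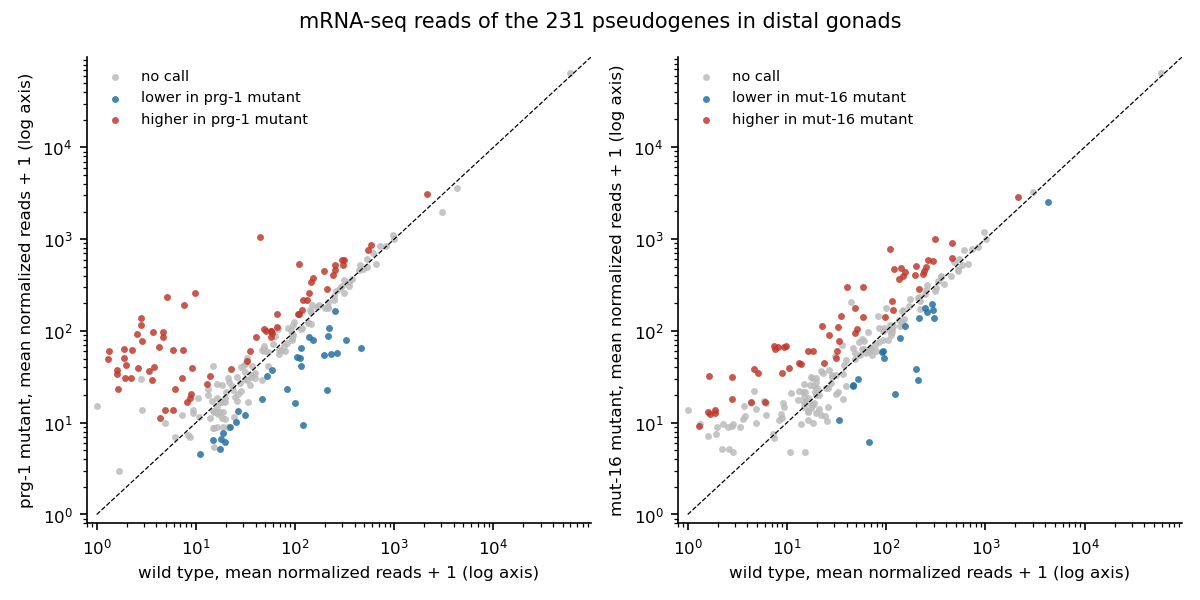
Mean normalized mRNA reads plus 1 of the 231 expressed pseudogenes in *prg-1* (left panel) or *mut-16* (right panel) gonads on the vertical axis, against wild type gonads on the horizontal axis, both on log axes with 3 libraries per group. Each point is 1 gene, red where called higher in the mutant, blue where lower and grey where not called, and the dashed line marks equal reads. In the left panel 72 points are red and 31 blue, and in the right panel 58 are red and 20 blue, and red points reach down to 1 on the horizontal axis.

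Among the genes with the largest gains over wild type, M176.9, C08F11.14 and T08G3.4 had few wild type reads. M176.9 had 43.2, 66.5 and 235 in *prg-1*, 33.9, 38.3 and 18.8 in *mut-16* and 0, 5.35 and 0 in wild type libraries. For M176.9, all libraries of both mutants were above wild type (log2 change 5.59 ± 0.82, adjusted p = 0.00097, in *prg-1* and 4.02 ± 0.82, adjusted p = 0.0082, in *mut-16*). C08F11.14 had 42.3, 72.5 and 293 in *prg-1*, 12.3, 31 and 7.3 in *mut-16* and 0.972, 4.46 and 0 in wild type libraries. For C08F11.14, all libraries of both mutants were above wild type (log2 change 5.47 ± 0.85, adjusted p = 0.0012, in *prg-1* and 2.79 ± 0.85, adjusted p = 0.035, in *mut-16*). T08G3.4 had 61.6, 141 and 501 in *prg-1*, 22.6, 53.8 and 25 in *mut-16* and 4.86, 6.24 and 1.08 in wild type libraries. For T08G3.4, all libraries of both mutants were above wild type (log2 change 5.21 ± 0.78, adjusted p = 0.0013, in *prg-1* and 2.86 ± 0.78, adjusted p = 0.026, in *mut-16*). In the 3 genes, *prg-1* replicate 3, *mut-16* replicate 2 and wild type replicate 2 were the highest of their groups, as they were for the sperm marker sum. M176.9 is now classed as protein-coding in RefSeq and the other 2 as pseudogenes, none with a gene name.

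The same libraries were highest for T28B8.4 and T13F2.9. T28B8.4 had 65.3, 128 and 377 in *prg-1*, 61.7, 84.8 and 38.6 in *mut-16* and 1.94, 17.8 and 0 in wild type libraries. For T28B8.4, all libraries of both mutants were above wild type (log2 change 5.28 ± 1.08, adjusted p = 0.0062, in *prg-1* and 3.97 ± 1.08, adjusted p = 0.03, in *mut-16*). T13F2.9 had 360.5, 679.7 and 2105 in *prg-1*, 161, 327 and 128 in *mut-16* and 9.72, 106 and 14 in wild type libraries. For T13F2.9, all libraries of both mutants were above wild type (log2 change 4.96 ± 1.01, adjusted p = 0.0071, in *prg-1* and 2.88 ± 1.01, adjusted p = 0.069, in *mut-16*). T13F2.9 took the most reads of the 5 and was not called in *mut-16* gonads, and T28B8.4 is now classed as protein-coding. The *mut-16* calls of C08F11.14, T08G3.4 and T28B8.4 were lost without *mut-16* replicate 1 or 2 or wild type replicate 1 or 3, and those of T08G3.4 and T28B8.4 also without *mut-16* replicate 3, with adjusted p up to 0.12.

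Another 3 had from 1 to 3 reads over all wild type libraries, so their folds are given as ratios of scaled read counts with 95% intervals that cover counting error only. Y46G5A.25 (*snf-4*, named for a family of sodium-dependent transporters) had 184 reads over the *prg-1* libraries and 1 over the wild type ones, a ratio of 181 (32.1 to 7180). R11H6.7 had 150 reads in *prg-1* and 1 in wild type libraries, a ratio of 147 (26.1 to 5860). Y70C5C.5 (*clec-236*) had 195 in *prg-1* and 3 in wild type libraries, a ratio of 63.9 (21.5 to 313). All 8 of these genes were also called without *prg-1* replicate 3.

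Both major sperm protein pseudogenes were called higher in *prg-1* gonads (20.7% of all features), and both had from 1 to 3 wild type reads. Both were under 10 in every wild type library, so they could enter only by being higher in a mutant. F26G1.8 (*msp-42*) had 6.44, 15.1 and 103 in *prg-1*, 5.14, 16.5 and 2.08 in *mut-16* and 0, 1.78 and 1.08 in wild type libraries. Its 130 reads in *prg-1* against 3 in wild type gonads gave a ratio of 42.6 (14.3 to 209), and F59A6.8 (*msp-71*), given above, had 102 reads against 2, a ratio of 50.1 (13.5 to 420). The call of *msp-42* was lost without wild type replicate 1 (adjusted p = 0.053) and that of *msp-71* without wild type replicate 1 or 3 (adjusted p up to 0.11). Of the 4 *clec* pseudogenes, 3 were higher in *prg-1* gonads (20.7% of all features) and 2 in *mut-16* gonads (15.5%). Y70C5C.5, given above, was likewise under 10 in every wild type library. Over all 72 pseudogenes higher in *prg-1*, 38 (52.8%) had their highest value in *prg-1* replicate 3, against 1615 of the 2063 features called higher (78.3%). In 30 of the 72 (41.7%) that library was at least 2 times replicate 2, against 58.5% of all features called higher.

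**Figure D2:**
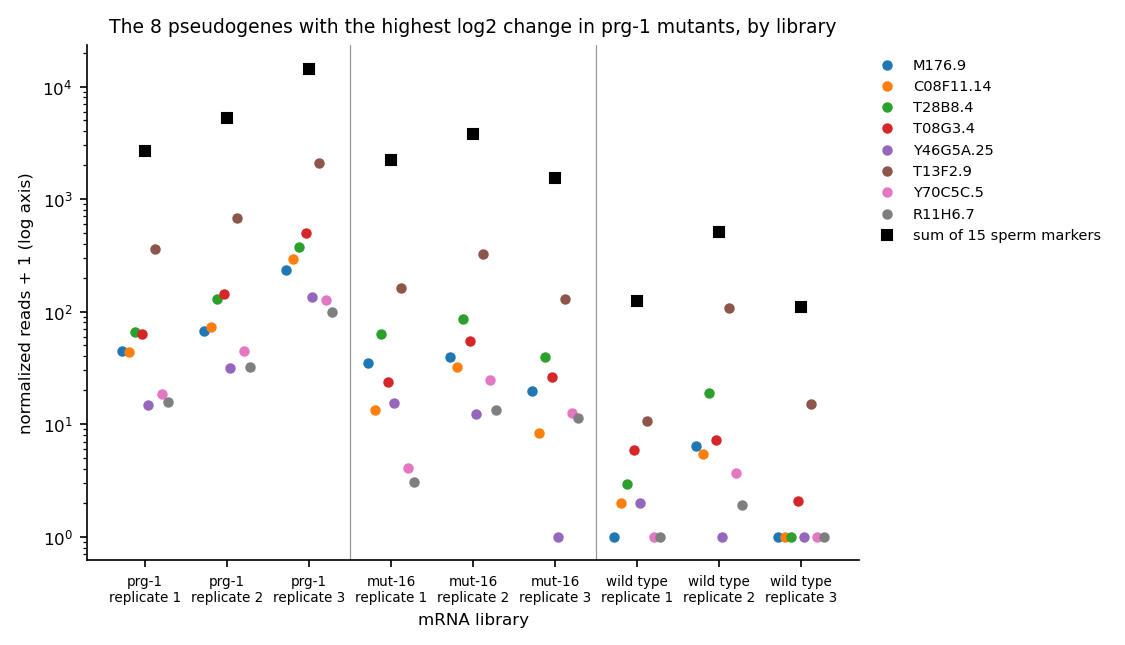
Normalized mRNA reads plus 1, on a log axis, in each of the 9 gonad libraries for the 8 expressed pseudogenes with the largest positive log2 change in *prg-1* (coloured circles) and for the sum of 15 sperm marker genes (black squares). Within *prg-1*, replicate 3 has the highest marker sum (14357), and in *mut-16* replicate 2 does (3775), while the wild type sums stay between 110 and 510.4.

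In the second group, *prg-1* libraries lay below wild type and no gene was called lower in *mut-16* gonads. Y102A5C.6 had 50.6, 69.5 and 72.6 in *prg-1*, 867, 951 and 905 in *mut-16* and 429, 462 and 498 in wild type libraries. For Y102A5C.6, *prg-1* was below and *mut-16* above wild type in every library (log2 change -2.85 ± 0.13, adjusted p = 2.4e-07, in *prg-1* and 0.97 ± 0.13, adjusted p = 6e-04, in *mut-16*). Y102A5C.5 had 51.5, 52.4 and 66.8 in *prg-1*, 557, 597 and 591 in *mut-16* and 249, 267 and 282 in wild type libraries. For Y102A5C.5, *prg-1* was below and *mut-16* above wild type in every library (log2 change -2.21 ± 0.11, adjusted p = 4.3e-07, in *prg-1* and 1.13 ± 0.11, adjusted p = 7.5e-05, in *mut-16*). These 2 neighbours thus fell in *prg-1* and rose in *mut-16* gonads. Y102A5C.35 had 1.84, 4.03 and 6.68 in *prg-1*, 30.8, 23.8 and 36.5 in *mut-16* and 17.5, 13.4 and 18.4 in wild type libraries. For Y102A5C.35, *prg-1* was below and *mut-16* above wild type in every library (log2 change -1.85 ± 0.42, adjusted p = 0.006, in *prg-1* and 0.84 ± 0.42, adjusted p = 0.15, in *mut-16*). It lies in the same run of neighbours and was called in *prg-1* alone. The remaining gene of that run, the F-box pseudogene Y102A5C.3 (*fbxa-207*), was called in neither mutant, at 0.13 in *prg-1* and 0.15 in *mut-16* on the log2 scale.

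A set of 3 F-box pseudogenes formed another run of neighbours and all fell in *prg-1* gonads. F57G4.4 (*fbxa-191*) had 9.2, 12.1 and 24.8 in *prg-1*, 141, 194 and 189 in *mut-16* and 97.2, 101.7 and 95.1 in wild type libraries. For F57G4.4, *prg-1* was below and *mut-16* above wild type in every library (log2 change -2.71 ± 0.30, adjusted p = 0.00012, in *prg-1* and 0.81 ± 0.30, adjusted p = 0.062, in *mut-16*). F59A1.9 (*fbxa-193*) had 82.8, 69.5 and 82.1 in *prg-1*, 342, 343 and 359.6 in *mut-16* and 269, 339.8 and 376 in wild type libraries. For F59A1.9, *prg-1* was below wild type in every library and *mut-16* overlapped with it (log2 change -2.05 ± 0.13, adjusted p = 2e-06, in *prg-1* and 0.10 ± 0.13, adjusted p = 0.59, in *mut-16*). Neither was called in *mut-16* gonads. F59A1.8 (*fbxa-129*) had 78.2, 85.6 and 94.5 in *prg-1*, 321, 262 and 272 in *mut-16* and 218, 211 and 217 in wild type libraries. For F59A1.8, *prg-1* was below and *mut-16* above wild type in every library (log2 change -1.32 ± 0.11, adjusted p = 1.7e-05, in *prg-1* and 0.40 ± 0.11, adjusted p = 0.024, in *mut-16*). Its rise in *mut-16* was lost as a call without *mut-16* replicate 1 or any wild type library, with adjusted p up to 0.078 or a fold under 1.3.

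The pseudogenes F57G4.7 and F57G4.9 share the clone name of *fbxa-191* and are absent from the RefSeq table. F57G4.7 had 51.5, 57.4 and 55.4 in *prg-1*, 444, 393 and 421 in *mut-16* and 217, 234 and 246 in wild type libraries. For F57G4.7, *prg-1* was below and *mut-16* above wild type in every library (log2 change -2.06 ± 0.10, adjusted p = 2.9e-07, in *prg-1* and 0.85 ± 0.10, adjusted p = 0.00021, in *mut-16*). F57G4.9 had 14.7, 35.2 and 17.2 in *prg-1*, 164, 127 and 139.7 in *mut-16* and 84.6, 81.2 and 82.1 in wild type libraries. For F57G4.9, *prg-1* was below and *mut-16* above wild type in every library (log2 change -1.94 ± 0.28, adjusted p = 0.00064, in *prg-1* and 0.78 ± 0.28, adjusted p = 0.054, in *mut-16*). F57G4.7 was called higher in *mut-16* gonads and F57G4.9 was not called there. K03D3.13 (*rac-3*, named for the Rac GTPases) had 6.44, 2.01 and 8.59 in *prg-1*, 27.8, 34.1 and 26.1 in *mut-16* and 18.5, 14.3 and 18.4 in wild type libraries. For K03D3.13, *prg-1* was below and *mut-16* above wild type in every library (log2 change -1.58 ± 0.44, adjusted p = 0.016, in *prg-1* and 0.75 ± 0.44, adjusted p = 0.22, in *mut-16*). Its *prg-1* call was lost without wild type replicate 1 or 3 (adjusted p up to 0.052). In these 9 genes the *prg-1* libraries lay below all wild type libraries, and *prg-1* and wild type libraries did not overlap in 54% of all features tested (53.1% for *mut-16* and wild type). Of the 17 F-box pseudogenes as a whole, 2 were higher and 3 lower in *prg-1* gonads, against 20.7% and 9.53% of all features.

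**Figure D3:**
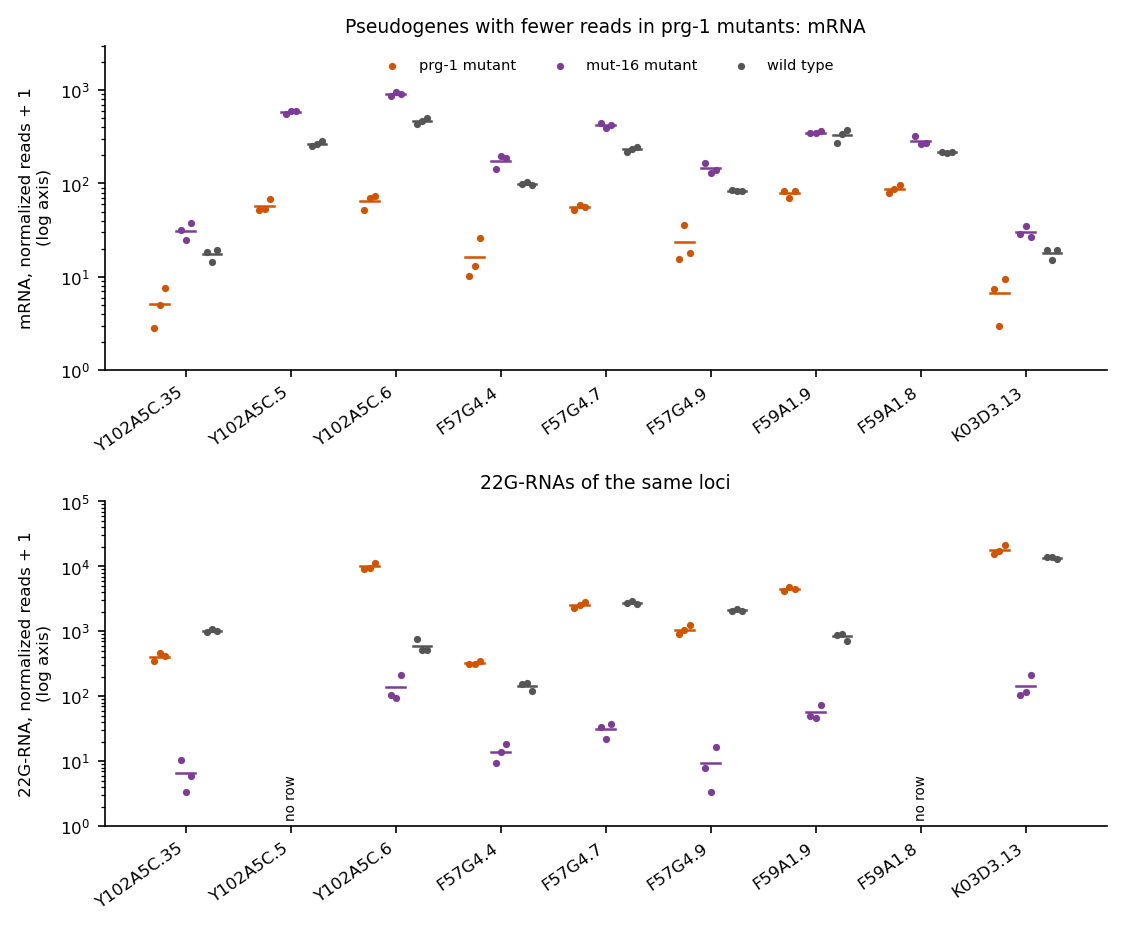
Normalized reads plus 1, on log axes, of 9 pseudogenes with fewer mRNA reads in *prg-1* gonads (top) and of the 22G-RNAs of the same loci (bottom). Points are libraries, 3 per group, lines are group means, and colours give *prg-1* (orange), *mut-16* (purple) and wild type (grey). Y102A5C.5 and F59A1.8 have no WAGO-class 22G-RNA entry. In the top panel the orange points lie under the grey and purple ones for every gene, and in the bottom panel the purple points are lowest.

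A few pseudogenes fell in both mutants, each set against the same 3 wild type libraries. T08D2.9 had 12, 5.03 and 8.59 in *prg-1*, 20.6, 15.5 and 21.9 in *mut-16* and 121, 109.7 and 131 in wild type libraries. For T08D2.9, all libraries of both mutants were below wild type (log2 change -3.74 ± 0.31, adjusted p = 1.5e-05, in *prg-1* and -2.59 ± 0.31, adjusted p = 0.00028, in *mut-16*). T08D2.3 had 69.9, 42.3 and 49.7 in *prg-1*, 28.8, 27.9 and 54.2 in *mut-16* and 173, 183 and 235 in wild type libraries. For T08D2.3, all libraries of both mutants were below wild type (log2 change -1.87 ± 0.28, adjusted p = 0.00075, in *prg-1* and -2.44 ± 0.28, adjusted p = 2e-04, in *mut-16*). These 2 are neighbours without a gene name. Y73B3B.5 had 17.5, 24.2 and 22.9 in *prg-1*, 27.8, 25.9 and 30.2 in *mut-16* and 169, 215 and 247 in wild type libraries. For Y73B3B.5, all libraries of both mutants were below wild type (log2 change -3.23 ± 0.20, adjusted p = 2.2e-06, in *prg-1* and -2.85 ± 0.20, adjusted p = 6.6e-06, in *mut-16*). No WAGO-class 22G-RNA entry carried the names of the 3, and small RNA entries of other classes were not searched.

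In *mut-16* gonads, 58 expressed pseudogenes were higher than in wild type gonads and 20 lower, or 33.8% of the 231, against 15.5% of all features higher, 4.6% lower and 20.1% in either direction. Of the 43 that were under 10 in every wild type library 15 were higher, and of the other 188 there were 43 higher and 20 lower. Here too the features as a whole were not split by their wild type level. The median log2 change was 0.27, against 0.01 over all features. Genes called in *mut-16* included several with a smaller gain, or no call, in *prg-1* gonads.

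Y53F4B.6 had 60.7, 58.4 and 63 in *prg-1*, 67.8, 69.3 and 65.7 in *mut-16* and 5.83, 7.14 and 6.48 in wild type libraries. For Y53F4B.6, all libraries of both mutants were above wild type (log2 change 3.05 ± 0.20, adjusted p = 3.1e-06, in *prg-1* and 3.20 ± 0.20, adjusted p = 2.5e-06, in *mut-16*). Its neighbour Y53F4B.40 had 91 reads over the *mut-16* libraries and 2 over the wild type ones, a ratio of 48.3 (95% counting interval 13 to 405). Both of them rose in both mutants. F53B2.7 had 19.3, 17.1 and 11.5 in *prg-1*, 74, 60 and 64.6 in *mut-16* and 9.72, 5.35 and 6.48 in wild type libraries. For F53B2.7, all libraries of both mutants were above wild type (log2 change 1.06 ± 0.32, adjusted p = 0.021, in *prg-1* and 3.07 ± 0.32, adjusted p = 1e-04, in *mut-16*). Y105C5A.25 had 11, 9.06 and 15.3 in *prg-1*, 64.8, 62 and 68.8 in *mut-16* and 7.78, 10.7 and 6.48 in wild type libraries. For Y105C5A.25, *prg-1* overlapped with wild type and *mut-16* was above it in every library (log2 change 0.45 ± 0.31, adjusted p = 0.26, in *prg-1* and 2.85 ± 0.31, adjusted p = 0.00014, in *mut-16*). By a direct test, F53B2.7 and Y105C5A.25 had fewer reads in *prg-1* than in *mut-16* (-2.01 ± 0.32, adjusted p = 0.0013 for F53B2.7 and -2.40 ± 0.31, adjusted p = 0.00036 for Y105C5A.25, log2). The *prg-1* call of F53B2.7 was lost without *prg-1* replicate 1 or 2 or wild type replicate 2 or 3 (adjusted p up to 0.073).

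The next 3 genes had more reads in every library. Y61A9LA.5 had 88.3, 81.6 and 86.9 in *prg-1*, 289.9, 274 and 335 in *mut-16* and 35, 35.7 and 46.4 in wild type libraries. For Y61A9LA.5, all libraries of both mutants were above wild type (log2 change 1.12 ± 0.14, adjusted p = 0.00033, in *prg-1* and 2.91 ± 0.14, adjusted p = 3.4e-07, in *mut-16*). Y39E4B.14 had 599.6, 506 and 494 in *prg-1*, 737, 783 and 833 in *mut-16* and 122, 99 and 103 in wild type libraries. For Y39E4B.14, all libraries of both mutants were above wild type (log2 change 2.3 ± 0.10, adjusted p = 2.4e-07, in *prg-1* and 2.86 ± 0.10, adjusted p = 2.7e-08, in *mut-16*). Y23H5A.1 (*cars-2*, named for a cysteinyl-tRNA synthetase) had 583, 581 and 609 in *prg-1*, 962, 1023 and 1009.9 in *mut-16* and 312, 277 and 348 in wild type libraries. For Y23H5A.1, all libraries of both mutants were above wild type (log2 change 0.92 ± 0.08, adjusted p = 2.5e-05, in *prg-1* and 1.68 ± 0.08, adjusted p = 2.8e-07, in *mut-16*). All 3 rose in both mutants and had fewer reads in *prg-1* than in *mut-16* (log2 change -1.79 ± 0.14, adjusted p = 1.3e-05, -0.56 ± 0.10, adjusted p = 0.0035 and -0.75 ± 0.08, adjusted p = 0.00011, in the order given).

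Of the 6 *bath* pseudogenes, 2 were higher and 2 lower in *prg-1* gonads (20.7% and 9.53% of all features), and 2 were higher in *mut-16* gonads (15.5%). The 2 higher ones were neighbours and the same in both mutants. F59H5.3 (*bath-12*) had 259, 269 and 242 in *prg-1*, 449, 504 and 488 in *mut-16* and 139, 127 and 151 in wild type libraries. For F59H5.3, all libraries of both mutants were above wild type (log2 change 0.88 ± 0.09, adjusted p = 8.5e-05, in *prg-1* and 1.78 ± 0.09, adjusted p = 4.7e-07, in *mut-16*). F40B1.2 (*bath-18*) had 10.1, 15.1 and 13.4 in *prg-1*, 14.4, 13.4 and 19.8 in *mut-16* and 3.89, 4.46 and 6.48 in wild type libraries. For F40B1.2, all libraries of both mutants were above wild type (log2 change 1.23 ± 0.39, adjusted p = 0.027, in *prg-1* and 1.51 ± 0.39, adjusted p = 0.018, in *mut-16*). The calls of *bath-18* were lost without *prg-1* replicate 2 or 3 or wild type replicate 1 or 2 in *prg-1* (adjusted p up to 0.1), and without *mut-16* replicate 2 or 3 in *mut-16* (adjusted p up to 0.067). The 2 lower in *prg-1* were F52C6.7 and B0047.5. F52C6.7 (*bath-11*) had 54.3, 47.3 and 46.8 in *prg-1*, 81.2, 92 and 91.7 in *mut-16* and 108, 106 and 118 in wild type libraries. For F52C6.7, all libraries of both mutants were below wild type (log2 change -1.15 ± 0.13, adjusted p = 0.00018, in *prg-1* and -0.32 ± 0.13, adjusted p = 0.092, in *mut-16*). B0047.5 (*bath-14*) had 81.8, 97.7 and 78.3 in *prg-1*, 129, 111 and 100.05 in *mut-16* and 127, 136 and 150.1 in wild type libraries. For B0047.5, *prg-1* was below wild type in every library and *mut-16* overlapped with it (log2 change -0.68 ± 0.14, adjusted p = 0.0038, in *prg-1* and -0.29 ± 0.14, adjusted p = 0.14, in *mut-16*). Neither was called in *mut-16* gonads. The histone genes *his-73* and *his-40*, both classed as protein-coding in RefSeq, were called in different mutants. W09H1.2 (*his-73*) had 12.9, 9.06 and 25.8 in *prg-1*, 49.3, 66.2 and 63.6 in *mut-16* and 16.5, 17.8 and 17.3 in wild type libraries. For W09H1.2, *prg-1* overlapped with wild type and *mut-16* was above it in every library (log2 change -0.23 ± 0.35, adjusted p = 0.62, in *prg-1* and 1.73 ± 0.35, adjusted p = 0.0067, in *mut-16*). K03A1.1 (*his-40*) had 111, 124 and 82.1 in *prg-1*, 243, 202 and 184 in *mut-16* and 243, 223 and 188 in wild type libraries. For K03A1.1, *prg-1* was below wild type in every library and *mut-16* overlapped with it (log2 change -1.05 ± 0.17, adjusted p = 0.0012, in *prg-1* and -0.06 ± 0.17, adjusted p = 0.82, in *mut-16*). Tested directly, both had fewer reads in *prg-1* than in *mut-16* (-1.96 ± 0.35, adjusted p = 0.0028 for *his-73* and -0.99 ± 0.17, adjusted p = 0.0021 for *his-40*, log2). The 5 chemoreceptor pseudogenes were not called, with log2 changes between -0.22 and 0.38 in *prg-1* and between -0.11 and 0.73 in *mut-16* gonads.

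Pseudogenes that fell in *mut-16* gonads included several that were not called lower in *prg-1*. Y18D10A.18 (*fbxa-121*) had 99.3, 108 and 108 in *prg-1*, 3.08, 6.2 and 6.25 in *mut-16* and 59.3, 66.9 and 73.4 in wild type libraries. For Y18D10A.18, *prg-1* was above and *mut-16* below wild type in every library (log2 change 0.65 ± 0.26, adjusted p = 0.067, in *prg-1* and -3.49 ± 0.26, adjusted p = 9e-06, in *mut-16*). It is an F-box pseudogene and had no WAGO-class 22G-RNA entry. Y39B6A.49 had 464, 488 and 599.7 in *prg-1*, 152, 133 and 127 in *mut-16* and 275, 313 and 313 in wild type libraries. For Y39B6A.49, *prg-1* was above and *mut-16* below wild type in every library (log2 change 0.78 ± 0.11, adjusted p = 0.00075, in *prg-1* and -1.12 ± 0.11, adjusted p = 9.1e-05, in *mut-16*). This gene was called higher in *prg-1* and lower in *mut-16* gonads. W09G3.5 (*fbxa-93*) had 81.8, 84.6 and 100.3 in *prg-1*, 41.1, 55.8 and 52.1 in *mut-16* and 108, 82.1 and 95.1 in wild type libraries. For W09G3.5, *prg-1* overlapped with wild type and *mut-16* was below it in every library (log2 change -0.09 ± 0.17, adjusted p = 0.7, in *prg-1* and -0.92 ± 0.17, adjusted p = 0.0045, in *mut-16*). K08C9.8 and AC8.1 were also called lower in *mut-16* gonads (log2 change -1.75 ± 0.42, adjusted p = 0.013 for K08C9.8 and -0.91 ± 0.29, adjusted p = 0.039 for AC8.1). The call of AC8.1 was lost with the replicate number as a block (adjusted p = 0.064) and without *mut-16* replicate 2 or 3 or wild type replicate 2 or 3 (adjusted p up to 0.15), and that of K08C9.8 without *mut-16* replicate 2 (adjusted p = 0.05).

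A direct test of the mutants called 72 of the 231 pseudogenes (31.2%), of which 23 had more and 49 fewer reads in *prg-1*, against 5.8% of all features higher, 9.58% lower and 15.4% in either direction. The 49 included the Y102A5C and F57G4 genes above, with log2 changes of -3.82 for Y102A5C.6 (adjusted p = 2.2e-08), -3.53 for F57G4.4, -2.69 for Y102A5C.35, -3.34 for Y102A5C.5, -2.91 for F57G4.7, -2.72 for F57G4.9 and -2.33 for K03D3.13. The clearest on the higher side were the F-box pseudogene *fbxa-121* (4.15 ± 0.26, adjusted p = 1.8e-06) and Y39B6A.49 (1.90 ± 0.11, adjusted p = 1.4e-06). C25D7.2, F35E2.10, T25C8.3 (*gln-4*, named for a glutamine synthetase), T04A8.3 (*clec-155*), C08F11.14 and W02A2.4 were also called higher, with adjusted p between 0.027 and 0.044. C25D7.2, for example, had 14.7, 23.2 and 191 reads in *prg-1* and 4.11, 0 and 7.3 in *mut-16* gonads, with the highest value in the *prg-1* replicate 3 library. Each of these 6 calls was lost without *mut-16* replicate 1 (adjusted p up to 0.15). Those of T25C8.3, T04A8.3, C08F11.14 and W02A2.4 were also lost without *prg-1* replicate 2 or 3 or *mut-16* replicate 3, that of F35E2.10 without *mut-16* replicate 3 and that of C25D7.2 without *mut-16* replicate 2. The count of 23 became 13 without *mut-16* replicate 1, 14 without *prg-1* replicate 2 and 13 in a fit of these 6 libraries alone.

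Genes of the pathways that act on such RNAs are counted here beside all features, of which 30.3% were called in *prg-1* and 20.1% in *mut-16* gonads. With so few genes in each list, the counts are a description only. Of 11 nonsense-mediated decay genes, log2 changes in *prg-1* gonads ran from -0.34 for *smg-6*, an endonuclease of the pathway, to 0.08 for *smgl-2*, with a median of -0.11 and all short of the fold of 1.3, and in *mut-16* gonads *smg-6* was the one called, at -0.64 (adjusted p = 8.3e-05, limma). Of 20 genes of the 22G-RNA machinery, 2 were higher in *prg-1* (*ppw-1* at 0.89 and *ppw-2* at 0.46, both WAGO Argonautes) and 1 lower, *prg-1* itself at -0.97, with a median of -0.02 over the 20. In *mut-16*, 3 were lower, namely *mut-16* at -1.12, the Argonaute *wago-4* at -1.04 and the Argonaute *csr-1* at -0.46, with a median of -0.09 over the 20.

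WAGO-class 22G-RNAs were measured at 107 of the 231 expressed pseudogenes, and the other 124 had no entry of that kind. All 107 entries carry the annotation's label for mutator-dependent loci, and how that label was given was not checked. Loss of 22G-RNAs in *mut-16* gonads is what the label states, so it describes these loci and is not a separate finding. 22G-RNAs of the 107 loci fell to a small remainder in *mut-16* gonads. In *prg-1* gonads most loci lost 22G-RNAs, some nearly all of them, while others gained several fold. The small RNA values are reads divided by a factor for each library.

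Summed over the 107 loci, 22G-RNA reads were 183174, 198581 and 228696 in *prg-1*, 8041, 8461 and 9592 in *mut-16* and 249348, 256752 and 249145 in wild type libraries. These made up between 3.32 and 3.68% of all small RNA values in *prg-1*, between 0.252 and 0.324% in *mut-16* and between 5.32 and 5.42% in wild type gonads. Group means per locus had a median of 264 in *prg-1*, 21.2 in *mut-16* and 565 in wild type gonads, and the highest was 24610 in *prg-1*, 1898 in *mut-16* and 28320 in wild type gonads. Each group lay apart from the others in the sums. Y24F12A.3 and Y24F12A.4 had nearly the same 22G-RNA values in every wild type gonad library. Sharing of small RNA reads between loci was not checked, so sums and counts over the 107 may hold the same reads more than once.

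By the same rule for a call, 25 of the 107 loci had more and 64 fewer 22G-RNAs in *prg-1* than in wild type gonads (83.2%), against 15.3% of all 8031 small RNA features higher, 47.3% lower and 62.6% in either direction. Among the 2394 WAGO-class loci alone, 16.2% were higher, 57.9% lower and 74.1% in either direction. The median log2 change over the 107 was -1.34. In *mut-16* gonads 106 were lower and 1, Y51A2D.23, was not called, against 33.6% of all features lower, 23.7% higher and 57.3% in either direction, and against 99.7% of the WAGO-class loci. The median over the 107 was -4.76 and 95 of the 107 loci were at least 4-fold lower. Between the mutants, 79 loci had more and 6 fewer 22G-RNAs in *prg-1*, against 23.9% of all features higher, 35.6% lower and 59.5% in either direction. Of the WAGO-class loci, 68.3% were higher, 3.43% lower and 71.7% in either direction.

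Directions in the small RNA libraries depended in part on the scaling. The median log2 change of all features in *prg-1* was -0.43 as deposited and -1.69 when libraries were scaled on miRNAs, which are made apart from this pathway. The study reported most miRNAs as depleted in distal gonads relative to whole animals. Other cells in a library can therefore shift this scaling, which was not tested. With miRNA scaling, 7 loci remained higher in *prg-1* (Y102A5C.6, F19B2.1, F59A1.9, W09G3.5, ZK1025.1, Y71A12B.13 and F45B8.5), and 10 of the 89 calls had the opposite sign. All 106 losses in *mut-16* kept their call with it. The median change of all features in *mut-16* was 0.24 as deposited and lay between -0.77 with miRNA scaling and 0.89 with library totals made equal.

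**Figure D4:**
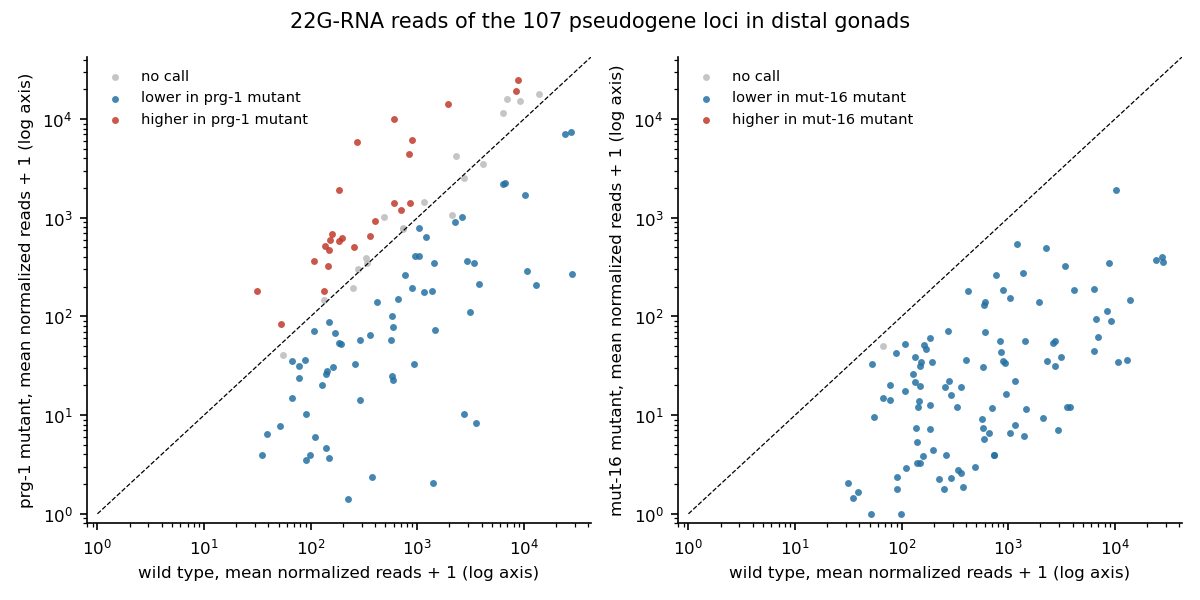
Mean normalized 22G-RNA reads plus 1 of the 107 expressed pseudogenes with a WAGO-class locus, in *prg-1* (left panel) or *mut-16* (right panel) gonads on the vertical axis, against wild type gonads on the horizontal axis, both on log axes with 3 libraries per group. Each point is 1 locus, red where called higher in the mutant, blue where lower and grey where not called, and the dashed line marks equal reads. The left panel has 25 red and 64 blue points on both sides of the line, and the right panel has 106 blue points, all under it.

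Loci with the largest losses in *prg-1* gonads lost 22G-RNAs in *mut-16* gonads too. 22G-RNAs of F32A11.5 were at 274, 257 and 270.3 in *prg-1*, 367, 328 and 370.0 in *mut-16* and 28119, 26832 and 30009 in wild type libraries. At F32A11.5, all libraries of both mutants were below wild type (log2 change -6.72 ± 0.07, adjusted p = 1.1e-12, in *prg-1* and -6.32 ± 0.07, adjusted p = 5.1e-13, in *mut-16*). 22G-RNAs of F23D12.9 were at 3.99, 4.79 and 13 in *prg-1*, 8.27, 13 and 11.8 in *mut-16* and 3416, 3575 and 3617 in wild type libraries. At F23D12.9, all libraries of both mutants were below wild type (log2 change -8.90 ± 0.35, adjusted p = 1.5e-08, in *prg-1* and -8.22 ± 0.35, adjusted p = 5.8e-09, in *mut-16*). F23D12.9 was left with few reads in either mutant. 22G-RNAs of T27E7.10 were at 7.97, 13.2 and 6.49 in *prg-1*, 64.8, 54.4 and 47.2 in *mut-16* and 2721, 2456 and 2987 in wild type libraries. At T27E7.10, all libraries of both mutants were below wild type (log2 change -8.11 ± 0.23, adjusted p = 2.4e-09, in *prg-1* and -5.60 ± 0.23, adjusted p = 4.2e-09, in *mut-16*). 22G-RNAs of C01G6.10 were at 174, 282 and 171 in *prg-1*, 31.7, 52.1 and 21.6 in *mut-16* and 12361, 14052 and 12536 in wild type libraries. At C01G6.10, all libraries of both mutants were below wild type (log2 change -5.99 ± 0.32, adjusted p = 1.7e-06, in *prg-1* and -8.57 ± 0.32, adjusted p = 1.5e-07, in *mut-16*).

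Other loci were left with 1 to 3 reads over the 3 *prg-1* libraries, and the ratio of wild type to *prg-1* is given with its 95% counting interval. Y60A9A.3 had 3 reads in *prg-1* and 4964 in wild type gonads, a ratio of 1100 (376 to 5330). C01G12.4 (*wee-1.2*, named for the Wee1 kinases that inhibit mitotic entry) had 1 read in *prg-1* and 792 in wild type gonads (526, 94.2 to 20800). ZC513.7 had 3 reads in *prg-1* and 1341 in wild type gonads (297, 101 to 1440).

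Losses as deep as these went with mRNA changes in either direction. mRNA of F32A11.5 was at 159, 172 and 160.4 in *prg-1*, 144, 160.3 and 168 in *mut-16* and 274, 221 and 269 in wild type libraries. For F32A11.5, all libraries of both mutants were below wild type (log2 change -0.63 ± 0.11, adjusted p = 0.0017, in *prg-1* and -0.69 ± 0.11, adjusted p = 0.0019, in *mut-16*). C01G6.10 went the other way, with mRNA at 649, 470.3 and 451 in *prg-1*, 462, 499 and 511 in *mut-16* and 259.6, 255 and 244 in wild type libraries. For C01G6.10, all libraries of both mutants were above wild type (log2 change 1.03 ± 0.12, adjusted p = 0.00021, in *prg-1* and 0.95 ± 0.12, adjusted p = 0.00051, in *mut-16*). K08E7.10 had 22G-RNA changes of -5.22 in *prg-1* and -8.31 in *mut-16* on the log2 scale, while its mRNA was at 66.2, 56.4 and 54.4 in *prg-1*, 135, 122 and 174 in *mut-16* and 28.2, 34.8 and 38.9 in wild type libraries. For K08E7.10, all libraries of both mutants were above wild type (log2 change 0.79 ± 0.19, adjusted p = 0.0075, in *prg-1* and 2.04 ± 0.19, adjusted p = 4.5e-05, in *mut-16*). The deeper loss and the larger mRNA gain of K08E7.10 were both in *mut-16* gonads.

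Gains of 22G-RNAs in *prg-1* gonads included pseudogenes of the group with fewer mRNA reads there. 22G-RNAs of Y102A5C.6 were at 9220.2, 9612 and 11232 in *prg-1*, 104.8, 94.7 and 214 in *mut-16* and 766, 516 and 516 in wild type libraries. At Y102A5C.6, *prg-1* was above and *mut-16* below wild type in every library (log2 change 4.08 ± 0.32, adjusted p = 1.7e-05, in *prg-1* and -2.19 ± 0.32, adjusted p = 0.00068, in *mut-16*). 22G-RNAs of F59A1.9 (*fbxa-193*) were at 4137, 4776 and 4482 in *prg-1*, 49.6, 45 and 72.8 in *mut-16* and 887, 911 and 716 in wild type libraries. At F59A1.9, *prg-1* was above and *mut-16* below wild type in every library (log2 change 2.42 ± 0.17, adjusted p = 1.3e-06, in *prg-1* and -3.91 ± 0.17, adjusted p = 2.6e-08, in *mut-16*). These 2 loci kept their call of higher in *prg-1* under miRNA scaling. 22G-RNAs of F57G4.4 (*fbxa-191*) were at 309.9, 309 and 345.9 in *prg-1*, 8.27, 13 and 17.7 in *mut-16* and 152, 160.5 and 122 in wild type libraries. At F57G4.4, *prg-1* was above and *mut-16* below wild type in every library (log2 change 1.15 ± 0.25, adjusted p = 0.0015, in *prg-1* and -3.43 ± 0.25, adjusted p = 3.7e-07, in *mut-16*). Under miRNA scaling its *prg-1* change was -0.08, without a call.

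The rest of that group was not called higher in *prg-1*. 22G-RNAs of F57G4.7 were at 2291, 2515 and 2834 in *prg-1*, 33.1, 21.3 and 36.4 in *mut-16* and 2689.7, 2923 and 2649 in wild type libraries. At F57G4.7, *prg-1* overlapped with wild type and *mut-16* was below it in every library (log2 change -0.12 ± 0.17, adjusted p = 0.57, in *prg-1* and -6.49 ± 0.17, adjusted p = 1.3e-09, in *mut-16*). F57G4.9 had a *prg-1* log2 change of -1.0 ± 0.52, adjusted p = 0.13, and K03D3.13 (*rac-3*) one of 0.38 ± 0.26, adjusted p = 0.22, neither called. Y102A5C.35 was lower (-1.34 ± 0.35, adjusted p = 0.0068). In *mut-16* gonads all 7 loci of the group with an entry were lower.

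The largest 22G-RNA gain in *prg-1* among the expressed pseudogenes was at a chemoreceptor pseudogene, F19B2.1 (*srz-33*). 22G-RNAs of F19B2.1 were at 5348, 5225 and 7158 in *prg-1*, 67.6, 40.2 and 100.4 in *mut-16* and 316, 242 and 247 in wild type libraries. At F19B2.1, *prg-1* was above and *mut-16* below wild type in every library (log2 change 4.45 ± 0.32, adjusted p = 7.2e-06, in *prg-1* and -2.02 ± 0.32, adjusted p = 8e-04, in *mut-16*). Its mRNA was at 193, 186 and 186 in *prg-1*, 212, 208 and 242 in *mut-16* and 162, 186 and 167 in wild type libraries, with no call in *prg-1* (0.13 ± 0.10, adjusted p = 0.29). 22G-RNAs of W09G3.5 (*fbxa-93*) were at 1801, 1805 and 2106 in *prg-1*, 9.65, 4.73 and 20.7 in *mut-16* and 213, 175 and 164 in wild type libraries. At W09G3.5, *prg-1* was above and *mut-16* below wild type in every library (log2 change 3.37 ± 0.41, adjusted p = 0.00011, in *prg-1* and -4.07 ± 0.41, adjusted p = 3.7e-05, in *mut-16*). Y61A9LA.5 and Y105C5A.25, which had less mRNA in *prg-1* than in *mut-16*, had more 22G-RNAs in *prg-1* than in wild type. 22G-RNAs of Y61A9LA.5 were at 461, 471 and 478 in *prg-1*, 29, 29.6 and 33.5 in *mut-16* and 140.2, 144 and 157 in wild type libraries. At Y61A9LA.5, *prg-1* was above and *mut-16* below wild type in every library (log2 change 1.67 ± 0.12, adjusted p = 6.6e-07, in *prg-1* and -2.23 ± 0.12, adjusted p = 3.7e-08, in *mut-16*). 22G-RNAs of Y105C5A.25 were at 372, 435 and 737 in *prg-1*, 6.9, 3.55 and 8.86 in *mut-16* and 128, 156 and 123 in wild type libraries. At Y105C5A.25, *prg-1* was above and *mut-16* below wild type in every library (log2 change 1.86 ± 0.32, adjusted p = 0.00036, in *prg-1* and -4.26 ± 0.32, adjusted p = 5.9e-07, in *mut-16*). Both were without a call in *prg-1* under miRNA scaling, where the log2 change was 0.44 for Y61A9LA.5 and 0.63 for Y105C5A.25.

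Pseudogenes with more mRNA in both mutants and fewer 22G-RNAs in both included Y53F4B.6, Y39E4B.14 and *cars-2*. 22G-RNAs of Y53F4B.6 were at 834, 863 and 1018 in *prg-1*, 474, 482 and 504 in *mut-16* and 2219, 2333 and 2217 in wild type libraries. At Y53F4B.6, all libraries of both mutants were below wild type (log2 change -1.32 ± 0.08, adjusted p = 1.7e-07, in *prg-1* and -2.21 ± 0.08, adjusted p = 1.2e-09, in *mut-16*). 22G-RNAs of Y39E4B.14 were at 6743, 7243 and 6992 in *prg-1*, 310.3, 377 and 427 in *mut-16* and 22263, 23754 and 26348 in wild type libraries. At Y39E4B.14, all libraries of both mutants were below wild type (log2 change -1.78 ± 0.11, adjusted p = 2.2e-07, in *prg-1* and -6.03 ± 0.11, adjusted p = 2.1e-11, in *mut-16*). 22G-RNAs of Y23H5A.1 (*cars-2*) were at 6776, 7259.7 and 8023 in *prg-1*, 399, 411 and 379 in *mut-16* and 28608, 28785 and 25642 in wild type libraries. At Y23H5A.1, all libraries of both mutants were below wild type (log2 change -1.91 ± 0.07, adjusted p = 1.3e-08, in *prg-1* and -6.12 ± 0.07, adjusted p = 1.1e-12, in *mut-16*). In Y39E4B.14 and *cars-2*, the *mut-16* libraries had the fewest 22G-RNAs and the most mRNA.

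Counted over the 107 loci, mRNA and 22G-RNA calls occurred in every combination in *prg-1* gonads. Of 26 pseudogenes with more mRNA, 17 had fewer 22G-RNAs, 5 more and 4 no call. Of 23 with less mRNA, 12 had fewer 22G-RNAs, 6 more and 5 no call. Of 58 without an mRNA call, 35 had fewer, 14 more and 9 no call. Over all 107 loci, 59.8% had fewer and 23.4% more, and over all WAGO-class loci 57.9% and 16.2%. A link between the 2 kinds of call was not tested. In *mut-16* gonads, where 22G-RNAs fell at 106 of the 107, mRNA was higher at 37 of these 106, lower at 8 and not called at 61.

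Having a WAGO-class 22G-RNA locus went with different mRNA counts in the 2 mutants. In *mut-16* gonads 37 of the 107 with a locus were higher (34.6%) and 8 lower, against 21 of the 124 without one (16.9%) and 12 lower. In *prg-1* gonads 26 of the 107 were higher (24.3%) and 23 lower, against 46 of the 124 (37.1%) and 8 lower. In the comparison of *prg-1* with *mut-16*, 7 were higher and 41 lower with a locus, against 16 and 8 without one. Over all features, 15.5% were higher and 4.6% lower in *mut-16*, 20.7% and 9.53% in *prg-1*, and 5.8% and 9.58% in *prg-1* against *mut-16*. The shares with and without a locus were not tested, and the 43 genes under 10 in every wild type library were not set apart. The pseudogenes without a locus had fewer wild type reads, with a median of 26.3, against 47.4 for those with a locus.

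Wild type gonads were also compared with whole wild type animals, to see which pseudogenes had more normalized reads in the distal arms. The proximal arms, with oocytes and sperm, were not part of the gonad samples. Of the 231 genes, 189 reached 10 in at least 3 of these 6 libraries, and among these 102 were higher in gonads than in whole animals and 28 lower (68.8%). Over all 12761 features tested, 26.1% were higher, 52.6% lower and 78.6% called in either direction. Since the pseudogenes were chosen for reads in gonads, the closer background is the 9259 of those features that met the same gonad threshold, of which 35.9% were higher, 34.9% lower and 70.8% in either direction. F-box and *bath* pseudogenes were called higher in gonads in 10 of 17 and in 5 of 5 cases, while the 4 *clec* and 2 major sperm protein pseudogenes did not reach the filter in these libraries.

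B0250.3 was at 3839.6, 2230.4 and 2868 in gonads, against 317, 772 and 222 in whole animal libraries (log2 fold change 2.94 ± 0.44, adjusted p = 0.00045). F18A11.6 was at 275, 309 and 294 in gonads, against 87.3, 60.2 and 56.9 in whole animal libraries (2.11 ± 0.18, adjusted p = 5.9e-06). Y53C10A.1 was at 718, 698 and 728 in gonads, against 249, 229 and 226 in whole animal libraries (1.60 ± 0.08, adjusted p = 3.2e-07). In each, gonad and whole animal libraries did not overlap, but the genes were named for a large change without overlap or a high mean in gonads. The median log2 change of the 189 was 0.67, against -0.79 over all features. The 189 were chosen for reads in gonads, and the median of the features meeting the same gonad threshold was not taken.

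Pseudogenes with more RNA in whole animals included a run of neighbours, F07H5.3, F07H5.4 and F07H5.5. F07H5.3 was at 70.2, 46.3 and 51.5 in gonads, against 844, 1217 and 1191 in whole animal libraries (-4.25 ± 0.19, adjusted p = 1.6e-07) and F07H5.5 at 483, 489.6 and 454 in gonads, against 3916, 4778 and 3974 in whole animal libraries (-3.14 ± 0.09, adjusted p = 1.8e-08), while F07H5.4 had a log2 change of -3.58 ± 0.26, adjusted p = 2.3e-06. Y67H2A.9 was at 7.8, 12 and 4.29 in gonads, against 287, 468 and 336 in whole animal libraries, the largest difference on this side (log2 fold change -5.40 ± 0.35, adjusted p = 1e-06). C01B10.1 (*drh-2*, named for the Dicer-related helicases) was at 53.6, 47.2 and 39.7 in gonads, against 310.0, 321 and 356 in whole animal libraries (-2.80 ± 0.16, adjusted p = 4.3e-07), and Y105C5B.12 (*sams-2*, named for S-adenosylmethionine synthetases) had a change of -2.79.

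Of the 8 pseudogenes with the largest gains in *prg-1* gonads, T13F2.9, T28B8.4 and T08G3.4 were lower in wild type gonads than in whole animals. The 8 were picked by their change in *prg-1* gonads. Of the features meeting the same gonad threshold 34.9% were lower in gonads, and of all features tested 52.6%. T13F2.9 was at 9.75, 102.0 and 13.9 in gonads, against 114, 132 and 224 in whole animal libraries (-2.57 ± 0.81, adjusted p = 0.019). T28B8.4 was at 1.95, 17.1 and 0 in gonads, against 16.4, 34.9 and 54.6 in whole animal libraries (-3.11 ± 1.01, adjusted p = 0.021), and T08G3.4 at 4.88, 6.0 and 1.07 in gonads, against 14.5, 11.6 and 40.6 in whole animal libraries (-2.19 ± 0.59, adjusted p = 0.0073). Whole adult hermaphrodites also carry stored sperm, and the sum of the sperm markers was 124, 490 and 108 in wild type gonads, against 833, 1020 and 1930 in whole animals, with all 14 tested called lower in gonads. Whether reads of these pseudogenes came from sperm was not tested. The call of T13F2.9 was lost without gonad replicate 1 or 3 or any whole animal library, and that of T28B8.4 without gonad replicate 1 or 3 or whole animal replicate 3, with adjusted p up to 0.14.

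**Figure D5:**
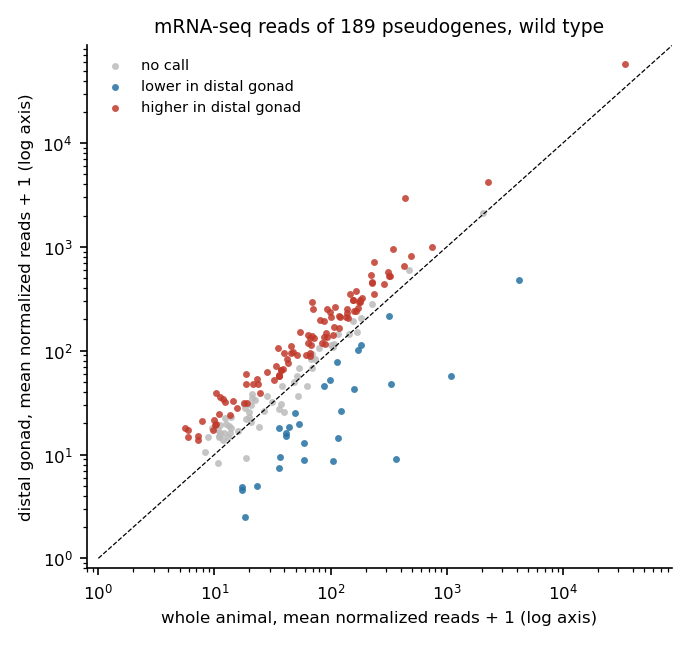
Mean normalized mRNA reads plus 1 of the 189 expressed pseudogenes tested, in wild type distal gonads on the vertical axis, against whole wild type animals on the horizontal axis, both on log axes with 3 libraries per group. Each point is 1 gene, red where called higher in gonads (102), blue where lower (28) and grey where not called, and the dashed line marks equal reads.

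22G-RNAs of the 107 loci had 47 calls of lower in gonads and 5 of higher (48.6%), against 23.2% of all 7191 small RNA features lower, 31.9% higher and 55.1% in either direction, and against 34.8% lower, 5.45% higher and 40.3% in either direction among the WAGO-class loci. Whole animals have 22G-RNAs of both germline and soma. Y59H11AR.6 was at 128, 135 and 118.8 in gonads, against 3297, 3117 and 3394 in whole animal libraries (log2 fold change -4.67 ± 0.09, adjusted p = 1.5e-07), and F56D6.16 was at 64.8, 81.4 and 64.1 in gonads, against 1534, 1283 and 1916 in whole animal libraries (-4.46 ± 0.17, adjusted p = 2.5e-06). At F07H5.5, which had less mRNA in gonads as well, 22G-RNAs were at 23.9, 21.7 and 13.8 in gonads, against 226, 282 and 298 in whole animal libraries (-3.72 ± 0.23, adjusted p = 3.2e-05). The 5 loci with more 22G-RNAs in gonads were *srz-33*, *fbxa-93*, Y46G5A.43, Y53F4B.6 and ZC15.4, and their number fell to 2 without gonad replicate 1 or 3, to 3 without gonad replicate 2, and was 8 without whole animal replicate 2. The call of *srz-33* (F19B2.1) was lost without gonad replicate 1 or 3 (adjusted p up to 0.11), and that of *fbxa-93* (W09G3.5) without any one gonad library or whole animal replicate 1 (adjusted p up to 0.14). The median log2 difference of all small RNA features was 0.18 as deposited and 0.47 with library totals made equal. With library totals made equal, the counts were 17 higher and 25 lower.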

How the data were processed

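mRNA (rRNA-depleted, directional libraries) and 16 to 30 nt small RNAs (treated with polyphosphatase) were sequenced, 3 libraries per group. The authors used Trimmomatic 0.35 for trimming, STAR 2.5.0a for mapping and RSEM 1.3.0 for read estimates per gene, and small RNA reads that did not match perfectly were discarded. Per the study's methods, *henn-1* mutant libraries, not analysed here, were normalized in parallel, and DESeq2 1.18.1 served for differential expression. The deposited values are a signal in normalized reads, that is reads or read estimates which the authors divided by 1 factor per library, and gene names follow WormBase WS230. Reads were worked back from the value of 1 read in each library.

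Features reaching 10 in at least 3 libraries were tested with limma 3.58.1 (R 4.3.3), with a trend and robust variances, on log2 of the value plus a pseudocount of 1, so a log2 change of a gene with few reads is understated. The 9 gonad libraries shared a fit, as did the 6 wild type gonad and whole animal libraries, and the tables were not set against each other. All adjusted p-values are from limma, two-sided, with Benjamini-Hochberg adjustment over all features tested, and a call needed an adjusted p below 0.05 and a fold of at least 1.3. Counting intervals are exact and cover counting error only. Names, classes and neighbours come from the RefSeq table of WBcel235, and no sequence was printed.

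The members and lists were chosen with earlier results of these data known. Genes were named by rule where they were among the 10 with the highest mean, the 8 largest calls in each direction without overlap between groups, or the 8 largest 22G-RNA calls. F59A1.8, F57G4.7, F57G4.9, F26G1.8, F59A6.8, Y61A9LA.5, Y39E4B.14, Y23H5A.1, F59H5.3, F40B1.2, W09H1.2, K03A1.1, the genes shown for their neighbours or family and the second measurement of any gene were named after their values were seen. Of 21 genes listed for the 22G-RNA machinery 20 were found, and *mut-2* was not matched.

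Wild type and *mut-16* mRNA libraries with the same replicate number deviated together (correlations of 0.124, 0.547 and 0.358), and in no other pair of groups were all 3 above 0.1, so the numbers were taken to pair these groups alone. Replicates of every group differed by more than sampling noise. Alternatives were other scalings, pseudocounts, filters, fits and left-out libraries. The whole animal transposon tables hold no pseudogenes and were not used.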

Additional observations from a re-analysis of the deposited data

How the results depend on the processing

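Of 258 calls that the naming rule or the text picked, not all of them printed, 209 kept their direction and their side of the threshold under every alternative run, 48 lost the call under at least 1 and 3 changed sign, with 2 counted under both. With libraries scaled on miRNAs, the 22G-RNA change in *prg-1* against wild type was -0.079 for F57G4.4 and -0.51 for F07H5.5, and with library totals made equal that of Y53F4B.6 in *prg-1* against *mut-16* was -0.056. In mRNA, the 23 pseudogenes higher in *prg-1* than in *mut-16* became 13 in a fit of those 6 libraries alone, and the 28 lower in gonads than in whole animals became 44 without a filter on low values. In 22G-RNAs, the 25 higher in *prg-1* than in wild type became 7 with scaling on miRNAs. With totals made equal, the 6 loci with fewer in *prg-1* against *mut-16* became 21, the 5 higher in gonads became 17 and the 47 lower became 25, and with TMM scaling the 5 became 9. The cause was not tested.

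Without 1 library at a time, mRNA calls numbered 54 to 65 higher and 24 to 34 lower in *prg-1* against wild type, 42 to 59 and 14 to 17 in *mut-16* against wild type, 13 to 28 and 33 to 49 in *prg-1* against *mut-16*, and 77 to 92 and 19 to 28 in gonads against whole animals. 22G-RNA calls numbered 22 to 24 higher and 53 to 64 lower, 0 and 96 to 106, 78 to 80 and 5 to 8, and 2 to 8 and 39 to 46, in the same order of comparisons. The 13 was without *mut-16* replicate 1 and the 28 without *prg-1* replicate 1. The test of edgeR 4.0.16 on reads worked back, an alternative added after seeing the data, gave 72 and 32, 49 and 17, 25 and 48, and 94 and 27 mRNA calls, and 29 and 65, 0 and 106, 79 and 6, and 5 and 48 22G-RNA calls.

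With the replicate number as a block, which pairs wild type with *mut-16* mRNA libraries, 59 pseudogenes were higher and 19 lower in *mut-16*, and AC8.1 was the named call lost there. In the other comparisons, where samples share only a number, the block gave 72 and 30 mRNA calls in *prg-1* against wild type, 22 and 45 in *prg-1* against *mut-16* and 95 and 27 in gonads against whole animals. For 22G-RNAs it gave 25 and 64, 0 and 105, 79 and 7, and 4 and 46 calls. Whole animal small RNA libraries had the fewest reads, from 505952 to 1642602, which limits the gonad against whole animal comparison of 22G-RNAs.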

Other observations

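WAGO-class 22G-RNAs were also annotated at 71 pseudogenes with too few mRNA reads to be counted among the expressed ones. Of the 64 tested, 16 had more and 19 fewer 22G-RNAs in *prg-1* than in wild type gonads, against 16.2% and 57.9% of all WAGO-class loci. All 64 had fewer in *mut-16* gonads, as did 99.7% of all WAGO-class loci. Y102A5C.10 and Y102A5C.12 had the same 22G-RNA values in every library, and others, such as T27C4.5, ZK682.1 and M03D4.5, had nearly the same. Sharing of small RNA reads between loci was not checked, so these counts may hold the same reads more than once. In mRNA, 14 of the 71 were at 0 mRNA reads in all 9 libraries. These genes were chosen after their values were seen. ZC239.1, at 0 mRNA reads in every library, had 22G-RNAs at 471, 492 and 519 in *prg-1*, 2.76, 2.37 and 4.92 in *mut-16* and 573, 616 and 492 in wild type libraries (log2 change -0.18, adjusted p = 0.46, in *prg-1* and -7.05, adjusted p = 4.7e-10, in *mut-16*), so that *prg-1* and wild type overlapped and *mut-16* lay far below. M02F4.9 had 1.99, 0 and 4.32 in *prg-1*, 1.38, 4.73 and 1.97 in *mut-16* and 1029, 1138 and 941 in wild type libraries, with mRNA values of at most 0.972 normalized reads in every library.

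F53H1.2 went the other way, with 22G-RNAs at 6888, 6781 and 7943 in *prg-1*, 5.52, 3.55 and 62.0 in *mut-16* and 714, 495 and 451 in wild type libraries (log2 change 3.73, adjusted p = 0.011, in *prg-1*). 22G-RNAs of T16G12.10 were at 14.9, 16.7 and 45.4 in *prg-1* and 539, 559 and 472 in wild type libraries. Its mRNA averaged 2.32 in *prg-1*, 7.93 in *mut-16* and 19.2 in wild type gonads and was not tested. The wild type mean rested mostly on a single library, at 53.5 normalized reads.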
